A study of Mus musculus with 8 samples.

Results

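Eif2b2, Paip2b and Azin1 are 3 genes that control protein synthesis or polyamine levels, and all of them had splicing events listed as different after deletion of Srsf3 in cultured mouse hepatocytes. They were chosen by gene name from 638 genes named in 2 deposited splicing tables, after their values in this comparison were known, so those values are given as a description and without a test. Together they had 4 listed events. Eif2b2 had 1 event in each table, Paip2b had 1 local splicing variation only, and Azin1 had 1 junction-usage event only.

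The libraries compared were 4 of AAV-Cre hepatocytes, labelled Srsf3-KO, and 4 of AAV-GFP hepatocytes, labelled Srsf3-flox. All cells came from livers of Srsf3 flox/flox mice of the C57BL/6J strain, were cultured, and carried an adeno-associated virus (AAV) for 48 h, so the floxed alleles and the viral infection were common to both groups. Cre recombinase removes the floxed part of Srsf3, which encodes an RNA-binding splicing regulator of the SR family, and green fluorescent protein (GFP) served as the control cargo. The labels used here do not give age, sex or whether the 4 libraries of a group came from separate animals, so the authors' p-values may reflect technical spread alone.

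Translation begins when the initiation factor eIF2 carries the initiator tRNA to the ribosome. After each round eIF2 must be reloaded with GTP by eIF2B, a multi-subunit exchange factor whose beta subunit is encoded by Eif2b2. Mutations in the human eIF2B subunit genes cause the leukoencephalopathy known as vanishing white matter. Stress kinases such as PERK, encoded by Eif2ak3, phosphorylate eIF2 and thereby block this reloading. Paip2b encodes a repressor that binds the poly(A)-binding protein and weakens its hold on the mRNA tail and its contacts with the initiation machinery. Azin1 encodes antizyme inhibitor 1, a relative of ornithine decarboxylase without enzyme activity. It binds antizyme and so frees ornithine decarboxylase, the first enzyme of polyamine synthesis, and polyamines are in turn needed for translation, among others as the source of the hypusine residue of eIF5A.

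The sequences below come from GENCODE M21 transcripts on GRCm38 (mm10) and are shown because their use is what the tables measured. Each 30-base stretch crosses a splice junction, with the last 15 bases of the upstream exon in lower case and the first 15 bases of the downstream exon in capitals. In Eif2b2 the same start of exon 7 follows either exon 6 or exon 5, and in Azin1 the same end of exon 2 precedes either exon 3 or exon 4.
Eif2b2, exon 6 to exon 7, included: aagctgtcccctcagTTCCCCAGTGAAGAA
Eif2b2, exon 5 to exon 7, skipped: tcgagagtcaacaagTTCCCCAGTGAAGAA
Azin1, exon 2 to exon 3, included: tcctaacttgtccatGGAGGTCTTCACTTC
Azin1, exon 2 to exon 4, skipped: tcctaacttgtccatTTTGTTGCATATTCT
Paip2b, exon 1 to exon 2, spliced: tgtccgcgcggccagGCACCTGGAAGGGTG

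The measure throughout is percent spliced in (PSI), written as a fraction from 0 to 1. For local splicing variations, in the authors' deposited table, it is the share of each junction, or retained intron, among those that enter or leave the same exon. That table gives 1 value per group, while the other, of junction usage, gives 1 change per event with a p-value and a q-value. Values per library, their spread and their depth were therefore not analysed here, and no SD can be given. In bulk RNA an intermediate PSI in all cells and a full switch in some of the cells cannot be told apart. The labels were checked on Srsf3 itself, where splicing of exon 1 to exon 2 had a PSI of 0.157 in AAV-Cre and 0.998 in AAV-GFP in the authors' deposited table. None of 12 hepatocyte marker genes was listed in either splicing table, and the tables hold no expression levels, so the labelled cell type was not checked. Of the markers of macrophages, endothelial cells, stellate cells and cholangiocytes 1 was listed, Cd68, among 7 macrophage markers. Its cassette exon event had a change of 0.106 in size and a q-value of 0.0178 in the authors' deposited table, past the thresholds of 0.1 and 0.05 used below, and its part in the results was not tested.

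**Figure D1:**
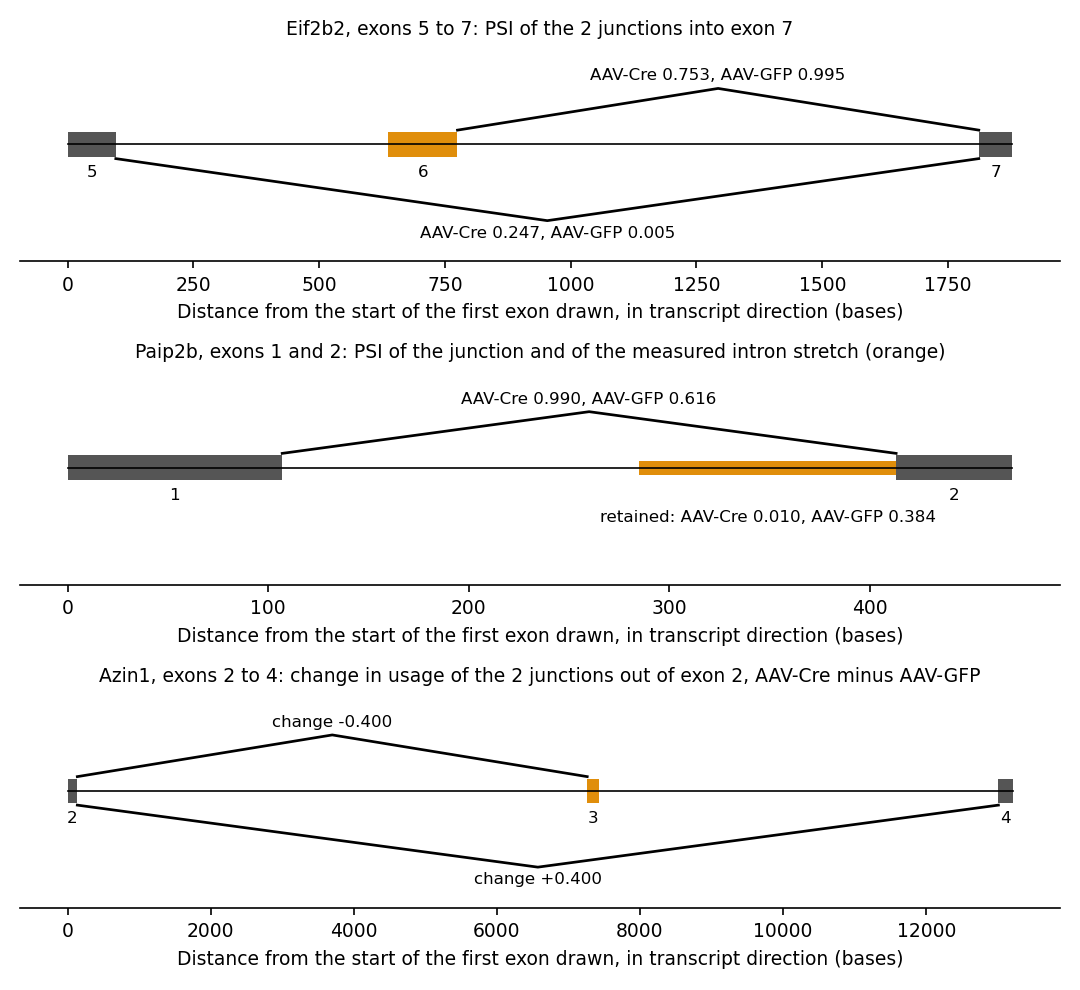
Maps of the 3 events drawn to scale, 1 scale per panel, with distance in bases along the transcript on the x axis, exons as numbered boxes and junctions as angled lines. The orange exon 6 of Eif2b2 and exon 3 of Azin1 were joined less in AAV-Cre than in AAV-GFP, and the orange stretch of Paip2b intron 1 was retained less.

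Eif2b2 (ENSMUSG00000004788.11) skipped its exon 6 more often in AAV-Cre than in AAV-GFP. This exon has 138 bases (chromosome 12, 85223381 to 85223518, plus strand, mm10) and lies between exons 5 and 7 of an 8-exon transcript. The join of exon 6 to exon 7, which marks inclusion, in the authors' deposited table had a PSI of 0.753 in AAV-Cre and 0.995 in AAV-GFP. The junction from exon 5 to exon 7, which marks skipping, had a PSI of 0.247 in AAV-Cre and 0.005 in AAV-GFP in the same authors' deposited table. Skipping was thus near the bottom of the scale in AAV-GFP and a sizeable minority of the junctions into exon 7 in AAV-Cre. The authors' deposited table gave an expected change of -0.213 for inclusion, smaller in size than the -0.242 between its own group values.

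The same pair of Eif2b2 junctions was listed as a cassette exon by junction usage. Inclusion differed by -0.223 in that authors' deposited table, with a p-value of 0.000758 and a q-value of 0.0785. It therefore had the same direction and a similar size there, but did not pass the q-value threshold of 0.05. By q-value it was 20 of 131 listed cassette exons, and by size of change 67 of 131. The tables share their libraries, and the match between them is therefore not a second measurement.

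Exon 6 of Eif2b2 is wholly coding and keeps the frame. It starts and ends at codon boundaries and holds 46 codons, from codon 232 to codon 277 of 351, so the same transcript without it would have 305 codons. Among 7 annotated transcripts of the gene, 1 has the exon between both neighbours and 1 joins exon 5 to exon 7 directly, and both of these are annotated as protein coding. The introns around it have 541 bases upstream and 1036 bases downstream, and no exon of another gene overlaps the stretch from exon 5 to exon 7. The exon is shown because its presence is the measured difference, with the match to CATC, a short motif bound by SRSF3, in capitals.
Eif2b2, exon 6, chr12:85223381-85223518, plus strand: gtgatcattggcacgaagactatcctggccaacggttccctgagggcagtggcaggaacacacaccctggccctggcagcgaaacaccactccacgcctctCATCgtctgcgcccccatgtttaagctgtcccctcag

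Its GC content was 60.1%, beside a median of 51.4% over 1313 internal exons of the same length from protein-coding transcripts. CATC was searched on the transcript strand only and occurred 1 time in exon 6, and 54% of the 1313 exons held it. A second motif reported for SRSF3, 5-letter words with C at the second and last letter and A or T at each of the others, was searched in the same way and also occurred 1 time, as TCATC, which overlaps the CATC match. At least 1 of these words was found in 72% of exons of that length.

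Paip2b (ENSMUSG00000045896.14) had lower measured retention in its first intron in AAV-Cre than in AAV-GFP. Intron 1 has 306 bases (chromosome 6, 83831329 to 83831634, minus strand, mm10) and lies in the 5' untranslated region, 29 bases before the start codon in exon 2. The join of exon 1 to exon 2 had, in the authors' deposited table, a PSI of 0.990 in AAV-Cre and 0.616 in AAV-GFP. Retention had a PSI of 0.010 in AAV-Cre and 0.384 in AAV-GFP in the same authors' deposited table. Retention as measured was thus close to the bottom of the scale in AAV-Cre and a large minority of the signal into exon 2 in AAV-GFP. The expected change in retention was -0.366 in the authors' deposited table, against -0.374 between the group values.

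The retained part that the table measured is not the whole intron. It covers the 128 bases next to exon 2 (83831329 to 83831456). The other 178 bases, next to exon 1, lie inside the only exon (83831457 to 83831700) of a transcript annotated as a retained intron, Paip2b-205, which runs out of exon 1 and ends within the intron. The table therefore does not say whether an RNA that kept the 128 bases also kept the other 178 bases. None of 5 annotated transcripts holds the 128-base stretch in an exon. With the intron removed the leader before the start codon has 136 bases, and with the whole intron it has 442 bases. The coding sequence of 136 codons is the same in both forms. No exon of another gene overlaps the stretch from exon 1 to exon 2.

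Most listed introns in variations of 2 parts went the other way. The 3 stretches of 100 kb with 8 or more variations, which held 423 of the 862 local variations, were set aside. Elsewhere, 34 introns in 2-part variations had a change of at least 0.2, of which 32 were retained more and 2 less in AAV-Cre. The 2 retained less were Paip2b and Srsf5, an SR protein gene with retention of 0.416 in AAV-Cre and 0.816 in AAV-GFP in the authors' deposited table. The change of Paip2b was close to the middle in size, at 0.366 beside a median of 0.325 over the 34 introns. Introns in variations of more than 2 parts were not counted here. Among those were the introns of Sat1, retained less in AAV-Cre, and of Mat2a, retained more, both given below. In the listed junction-usage events Paip2b had none, so its change has no second estimate.

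**Figure D2:**
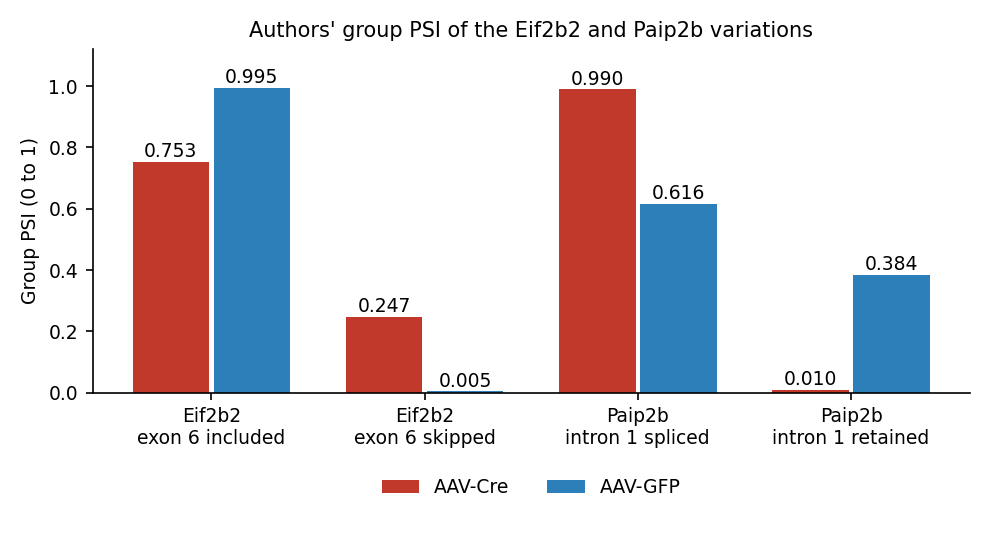
Bars give the authors' group PSI (0 to 1) of both junctions of Eif2b2 and of the junction and retained intron of Paip2b, with AAV-Cre in red on the left and AAV-GFP in blue on the right. There is 1 value per group and no error bar, because values per library were not analysed here; skipping of Eif2b2 exon 6 stands at 0.247 in AAV-Cre and 0.005 in AAV-GFP.

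Azin1 used the splice site of its leader exon 3 less in AAV-Cre than in AAV-GFP. The event is listed as a pair of alternative 3' splice sites joined from the end of exon 2. The near site, at 38507346 on chromosome 15 (minus strand, mm10), had a change of -0.40 in the authors' deposited table. The far site, at 38501600, had a change of 0.40 in the same authors' deposited table, with a p-value of 2.59e-05 and a q-value of 0.00904. The table gives no group PSI for this event, so the levels behind the change are not analysed here, and Azin1 was not listed among the local variations. The event passed the q-value threshold.

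By annotation these sites open different exons, so the event would amount to inclusion or skipping of exon 3. The join of exon 3 to exon 4 is not part of the listed event, so inclusion of the whole exon was not measured. Exon 3 has 160 bases (38507187 to 38507346) in a 13-exon transcript, and the far site opens exon 4, in which the start codon lies. The intron to the near site has 7126 bases and that to the far site 12872 bases. Of 9 annotated Azin1 transcripts, 2 hold exon 3 and 3 join exon 2 directly to exon 4. No base of exon 3 is coding, and the protein of 448 codons is the same with and without it. No exon of another gene overlaps the stretch from exon 2 to exon 4.

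Exon 3 lengthens the leader of Azin1 to 747 bases, against 587 bases without it. The leader with exon 3 holds 6 ATG triplets and the leader without it holds 3. Of the ATG triplets that come with the exon, 2 lie inside it and 1 is formed across its upstream junction, from the last bases of exon 2 and the first base of exon 3 shown above. The open frame that begins at the junction runs for 44 codons before a stop. Of the ATG triplets inside the exon, 1 lies within that same frame, 14 codons before the same stop. The other opens a separate frame of 31 codons. Both open frames end before the main start codon and are in another frame than the main one. Mammalian Azin1 leaders are known for an upstream coding stretch that responds to polyamines; whether it overlaps exon 3 was not tested, and translation was not measured.

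The GC content of exon 3 was 45%, beside a median of 51.2% over 822 internal exons of the same length. CATC occurred 1 time, and 59.4% of these exons held it. The 5-letter words named above occurred 5 times in exon 3, as 4 different words, beside a median of 1 per exon of that length, and 76.5% of these exons held at least 1. The CATC match lies within one of them.

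The members were then placed among all listed events. Of the 862 local variations 821 (95.2%) changed by at least 0.2, so that both member variations did so is near the background and is no result about them. At 0.3 the share was 58.1%, and Paip2b passed while Eif2b2 did not. By size of change Paip2b was 348 and Eif2b2 775 of the 862 variations. Among the 175 variations of 2 parts they were 59 and 163. Of the 862 variations 423 lay in the 3 dense stretches set aside above, and these shares and ranks include them.

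A q-value up to 0.05 together with a change of 0.1 or more was found for 57 of the 498 junction-usage events (11.4%), and for 1 of the 2 member events. The list holds 63 events with no finite change, which could not pass, and among the other 435 the share was 13.1%. For alternative 3' splice sites it was 7.84% of 102, or 10.4% of the 77 with a finite change. Azin1 was 5 of the 102 by q-value and 22 of the 77 by size of change. Among cassette exons, all with a finite change, the share was 12.2% of 131, without Eif2b2. The members were chosen from this comparison, so nothing is read from these shares.

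**Figure D3:**
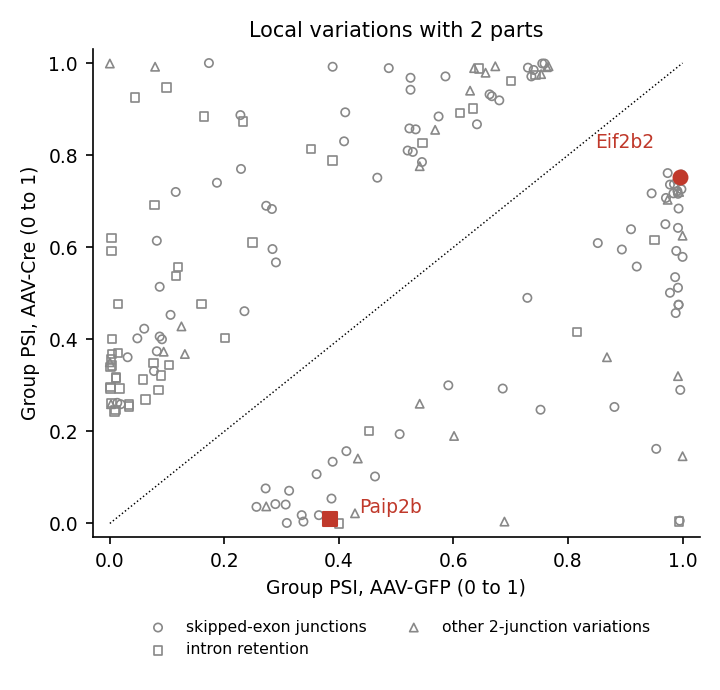
Each point is 1 local variation with 2 parts, with the authors' group PSI in AAV-GFP on the x axis and in AAV-Cre on the y axis, for the exon, the retained intron or, in other variations, the first-listed junction. Eif2b2 (0.753 in AAV-Cre, 0.995 in AAV-GFP) and Paip2b (0.010 in AAV-Cre, 0.384 in AAV-GFP) lie below the dotted line of equal PSI.

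**Figure D4:**
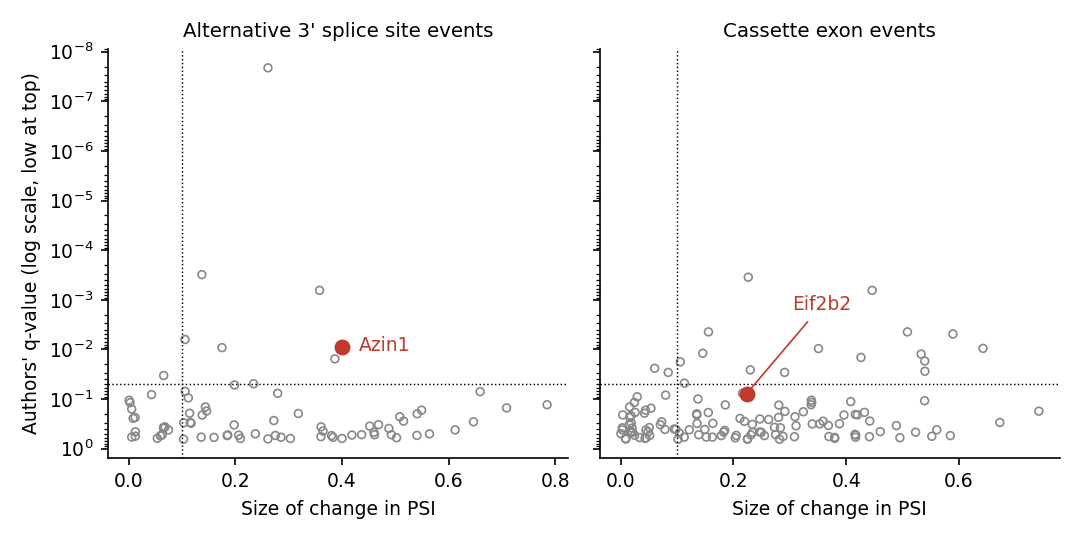
Each point is 1 listed event by junction usage with a finite change, alternative 3' splice sites on the left and cassette exons on the right, with the size of its change in PSI on the x axis and the authors' q-value on a log y axis, low values at the top, and dotted lines at 0.1 and 0.05. Azin1 stands among the alternative 3' splice sites that pass both lines, and Eif2b2 lies below the q-value line among the cassette exons.

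The genes nearest to the members by their pair of group values were found among 339 genes outside the dense stretches set aside above, over 2 group values only. For Eif2b2 these were Dst, at 0.750 in AAV-Cre and 0.994 in AAV-GFP, and Slc35e1, at 0.752 in AAV-Cre and 0.992 in AAV-GFP, in the authors' deposited table. Both lay at a distance of 0.00316. For retention of Paip2b they were H2-Q6, at 0.016 in AAV-Cre and 0.390 in AAV-GFP, and Zfp984, at 0.011 in AAV-Cre and 0.364 in AAV-GFP, in the authors' deposited table, at distances of 0.00849 and 0.02. In all 4 the part compared was a junction, not a retained intron. Azin1 has no group values and was not compared in this way.

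Other genes of the same pathways changed in part. Over 8 lists with 320 genes, members left out, 37 were listed in either table and 16 changed, which is 43.2% of those listed, beside 57.8% of all 635 genes listed, members left out. Of the genes with a finite change in at least 1 event, these shares were 44.4% of 36 and 61.7% of 595. A gene counted as changed with a local variation of at least 0.2 or a junction-usage event past both thresholds. Of local variations 95.2% counted as changed, but of junction-usage events only 11.4%. These gene shares therefore depend on which table lists a gene, and nothing is read from the gap between them.

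Of 55 further initiation factors and their inhibitors 5 were listed and 4 changed. Eif4g1, the scaffold that joins the cap-binding factor to the ribosome, had the lowest q-value of these genes. The site that opens its exon 6 differed by -0.261 in the authors' deposited table, with a q-value of 2.11e-08. The sites 30 and 33 bases further in differed by 0.177 and 0.0845 in the same authors' deposited table. For Eif5b, the subunit-joining factor, the junction with the largest change stood at 0.117 in AAV-Cre and 0.366 in AAV-GFP in the authors' deposited table. That of Eif4a2, an initiation helicase, stood at 0.762 in AAV-Cre and 0.957 in AAV-GFP in the authors' deposited table. By junction usage, a retained intron and a cassette exon of Eif4a2 had q-values of 0.305 and 0.403 in the authors' deposited table and did not pass. For Eif4e2, a cap-binding protein, the shorter of the 2 junctions of a variation classed as exon skipping stood at 0.867 in AAV-Cre and 0.641 in AAV-GFP in the authors' deposited table. None of the other eIF2B subunit genes was listed.

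Of 21 genes of eIF2 phosphorylation and the integrated stress response 3 were listed and 1 changed, Eif2ak3. Its junction from exon 3 to exon 4 stood at 0.992 in AAV-Cre and 0.732 in AAV-GFP in the authors' deposited table. The junction from an alternative first exon into exon 4 stood at 0.004 in AAV-Cre and 0.258 in AAV-GFP in the same authors' deposited table. By junction usage the change was 0.399 with a q-value of 0.0160 in the authors' deposited table, so transcripts with the upstream exons made up more of the total in AAV-Cre by both.

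Of 30 poly(A)-binding proteins and partners, Paip2b left out, 6 were listed and 0 changed by these thresholds. The 6 were Pabpn1, Paip1, Larp1b, Larp4, Larp4b and Ythdf2, all with junction-usage events only. Of all junction-usage events with a finite change 13.1% passed, so 0 among so few genes is no result about them. The event of Paip1 had no finite change and could not pass, which leaves 5 genes that could, and the close Paip2b relative Paip2 was not listed. Of 33 further polyamine genes 2 were listed and both changed. Sat1 encodes the acetyltransferase that starts polyamine breakdown. From its 110-base exon 4, annotated in a transcript subject to nonsense-mediated decay, the junction to the next exon stood at 0.993 in AAV-Cre and 0.495 in AAV-GFP in the authors' deposited table. RNA left unspliced after this exon stood at 0.004 in AAV-Cre and 0.504 in AAV-GFP in the same authors' deposited table. Mat2a encodes an enzyme that makes S-adenosylmethionine, which feeds polyamine synthesis. Retention of its last intron, of 585 bases, stood at 0.350 in AAV-Cre and 0.026 in AAV-GFP as seen from one end, and at 0.415 in AAV-Cre and 0.104 in AAV-GFP from the other, in the authors' deposited table. The unspliced share was thus lower in AAV-Cre after exon 4 of Sat1 and higher at the last intron of Mat2a. For Sat1 it is a share of the RNA that holds exon 4. How much Sat1 RNA holds that exon was not examined, so the shares of the 2 genes are not like measures. The genes of ornithine decarboxylase and of the antizymes were not listed.

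Of 83 ribosomal protein genes 15 were listed and 6 changed. Retention of an intron stood at 0.401 in AAV-Cre and 0.004 in AAV-GFP for Rps9, and at 0.316 in AAV-Cre and 0.011 in AAV-GFP for Rpl13a, in the authors' deposited table. A junction of Rps24 stood at 0.406 in AAV-Cre and 0.087 in AAV-GFP, and one of Rpl27 at 0.720 in AAV-Cre and 0.972 in AAV-GFP, in the authors' deposited table. By junction usage, a composite event of Rps24 had a change of 0.0412 in size and a q-value of 0.502, and did not pass. Ribosomal protein genes have many near-identical processed copies, so these values are uncertain where reads fit several copies. Of 28 elongation and termination factors 3 were listed and 1 changed, Dph5, at 0.758 in AAV-Cre and 0.996 in AAV-GFP in the authors' deposited table. Of 41 tRNA synthetases and scaffold genes 2 were listed and 1 changed, Rars2, at 0.993 in AAV-Cre and 0.766 in AAV-GFP in the authors' deposited table. Of 29 members of mTOR signalling 1 was listed, Akt1s1, and it changed, with a retained intron at 0.307 in AAV-Cre and 0.040 in AAV-GFP in the authors' deposited table.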

How the data were processed

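Per the labels' protocols, stranded mRNA libraries were read from both ends. FastQC, STAR and mm10 are named in the submitters' processing notes, without their roles; no version is given in the sources used here. The authors deposited a table in the layout of VOILA, the report of MAJIQ, with group PSI as a fraction and an expected change, and, per the file headers, a JUM list of events below a p of 0.05 that gives the change in PSI with its p-value and q-value. How either tool was set is not given in the sources used here.

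The deposited change of the first table correlated at -0.996 with AAV-Cre minus AAV-GFP PSI, so its sign was turned. Its column headed as a probability was not used, since all 4155 junctions with a change under 0.02 had 0.95 or more there. Of the second table, 48 of 498 events had no gene name and 63 no finite change. Its coordinates fit GENCODE M21 exons when 1 base was added to cassette exon starts (126 of 131 events) and 2 bases to downstream exon starts (131 of 131).

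The members and lists were chosen with earlier results of these data known. Named genes were all member rows, Srsf3, the 2 nearest genes per member and up to 4 changed genes per list. Variations count as changed at 0.2, and junction-usage events at a q-value of 0.05 and a change of 0.1. Alternatives changed these thresholds, the measure of change and the tables used. No test was run, because the tables hold no values per library, and depth is unknown. On simulated tables without noise, direction was recovered for 100% of 400 local variations and calls for 100% of 200 junction-usage events. These tables were built with the same sign and thresholds, so this checks only how the tables were read. Python 3.11.15, numpy 2.4.6 and matplotlib 3.10.9 were used.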

Additional observations from a re-analysis of the deposited data

How the results depend on the processing

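The number of member variations counted as changed stayed at 2 with a threshold of 0.1, with the difference of group PSI and with simple variations only. It was 1 with a threshold of 0.3, where Eif2b2 no longer passed. The change of Eif2b2 inclusion was -0.242 and that of Paip2b retention -0.374 as the difference of group PSI, the same direction as -0.213 and -0.366. The cause of these gaps was not tested. For Azin1 no such value could be given. The number of member junction-usage events that passed was 1 with a q-value of 0.05 at any change and at a change of 0.2, and 2 at the authors' p threshold of 0.05 with a change of 0.1, where Eif2b2 entered. The 16 pathway genes became 6 with a threshold of 0.3, 15 by local variations only and 2 by junction usage only. No paired analysis was possible because the deposited tables hold no values per library, and for the same reason no library could be left out.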
